A study of Homo sapiens with 2 samples.

Results

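The genes described here encode 9 host factors tied to the transforming functions of the SV40 T antigens: the pocket proteins RB1, RBL1 and RBL2, the CDK inhibitor genes CDKN2A and CDKN1A, the p53 regulators MDM2 and MDM4, the PP2A scaffold PPP2R1A and the cullin CUL7. They were listed by name and matched by symbol to the Ensembl IDs of the count table, where all 9 of the 9 were found among 60683 genes. The samples were 2 RNA-seq libraries of FKBP5 knockdown HEK293T cells, numbered 1 and 2 in their labels, in which FKBP5 was stably knocked down with short hairpin RNAs. HEK293T is a human embryonic kidney line that carries adenovirus E1 genes and expresses SV40 large T. The labels do not say how many hairpins or clones were used, or whether separate cultures were harvested, so p-values measure only the difference between these libraries, which may be technical. In bulk RNA, fewer cells of a type and less RNA per cell cannot be told apart. The libraries of scrambled control cells that the labels mention were not analysed here, so the values are levels in knockdown cells and differences between both libraries, and no effect of the knockdown was tested.

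Large T binds the pocket proteins through a short LxCxE motif and so frees the E2F transcription factors that these proteins restrain, and it binds p53 and blocks its activity as a transcription factor. Small T displaces regulatory subunits from the scaffold of the phosphatase PP2A, and large T also binds the ubiquitin ligase scaffold CUL7. These are interactions between proteins, and the files measured transcripts of human genes. All 60683 IDs are human Ensembl genes, and transcripts of the viral genes were not analysed here.

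Sample 1 held 9997706 counts and sample 2 held 21284648, of which the 9 genes took 0.0945% and 0.0919%. Levels are the deposited CPM, counts scaled by a library size that the authors set, and 1 count was worth 0.0964 CPM in sample 1 against 0.0458 in sample 2. Intervals are 95% exact intervals and cover counting error only. For each gene with a mean of at least 1 CPM, 15530 in all, an exact binomial test, 2-sided, set the 2 counts against the share of reads that the deposited library sizes give, and p-values were adjusted over all 15530 by Benjamini-Hochberg. At an adjusted p under 0.05 it passed 8.97% of the genes, 708 higher and 685 lower in sample 1 (551 and 857 with median-of-ratios size factors). It compares 2 libraries and not conditions, and takes no account of variation between cultures. FKBP5, the targeted gene, had 41 and 77 counts, which were 3.95 CPM in sample 1 (2.84 to 5.36) and 3.52 CPM in sample 2 (2.78 to 4.40). The labelled line was checked against marker lists: all 10 of 10 embryonic kidney and neuron-like genes known in HEK293 lines reached 1 CPM, led per length by UCHL1 and IGF2BP1, with summed levels of 1006 CPM in sample 1 against 952 in sample 2. Of 7 keratinocyte and epithelial markers 3 reached 1 CPM (summed 16.2 and 17.0 CPM), of 8 blood cell markers 1 (5.11 and 8.97 CPM), of 7 fibroblast markers 3 (62.9 and 72.8 CPM, mostly COL1A1) and of 6 hepatocyte markers 0 (0.675 and 0.732 CPM). The epithelial keratin genes KRT5, KRT14 and KRT6A, the leukocyte gene PTPRC and the hepatocyte genes ALB and AFP were all under 1 CPM. The haemoglobin genes HBG1 and HBG2 had no count.

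The sequences before 5 transcription starts of 3 of the genes are shown, because a single gene count of CDKN2A and of MDM2 covers transcripts from separate starts, and because RBL1 and MDM2 carry motifs of the factors that large T frees or blocks. They are the 250 bases before each start from RefSeq (GRCh38.p14), which gave windows for 8 of the 9 genes. CUL7 was not among them, and the window given for RB1 lies 172724 bases past the start of the gene and is not shown. Capitals mark a match, on either strand, to the E2F motif (TTTCCCGC, TTTCGCGC, TTTGCCGC or TTTGGCGC) or to the 20-letter p53 consensus with at most 2 mismatches, a limit chosen with these sequences in view.
RBL1, chr20:37095998-37096247, minus strand: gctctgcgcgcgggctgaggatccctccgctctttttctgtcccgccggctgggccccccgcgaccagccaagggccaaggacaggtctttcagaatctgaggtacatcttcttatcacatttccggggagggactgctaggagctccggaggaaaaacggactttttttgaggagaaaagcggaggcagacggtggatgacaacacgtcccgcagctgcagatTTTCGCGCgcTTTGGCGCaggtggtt
MDM2 first start, chr12:68807922-68808171, plus strand: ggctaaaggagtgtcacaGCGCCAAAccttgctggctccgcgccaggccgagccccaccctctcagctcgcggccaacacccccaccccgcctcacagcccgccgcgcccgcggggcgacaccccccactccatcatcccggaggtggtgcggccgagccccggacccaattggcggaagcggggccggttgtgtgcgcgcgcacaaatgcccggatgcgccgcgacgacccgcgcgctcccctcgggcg
MDM2 second start, chr12:68808767-68809016, plus strand: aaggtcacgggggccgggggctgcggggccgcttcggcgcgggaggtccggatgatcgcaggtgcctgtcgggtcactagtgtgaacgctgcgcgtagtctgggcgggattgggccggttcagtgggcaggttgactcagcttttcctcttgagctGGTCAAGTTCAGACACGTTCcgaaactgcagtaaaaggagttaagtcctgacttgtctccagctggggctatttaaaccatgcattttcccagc
CDKN2A upstream start, chr9:21995325-21995574, minus strand: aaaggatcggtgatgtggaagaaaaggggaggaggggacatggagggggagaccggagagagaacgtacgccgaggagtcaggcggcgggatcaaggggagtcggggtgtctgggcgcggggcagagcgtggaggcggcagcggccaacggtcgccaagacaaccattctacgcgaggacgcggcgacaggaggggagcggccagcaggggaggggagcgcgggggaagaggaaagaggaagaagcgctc
CDKN2A downstream start, chr9:21974858-21975107, minus strand: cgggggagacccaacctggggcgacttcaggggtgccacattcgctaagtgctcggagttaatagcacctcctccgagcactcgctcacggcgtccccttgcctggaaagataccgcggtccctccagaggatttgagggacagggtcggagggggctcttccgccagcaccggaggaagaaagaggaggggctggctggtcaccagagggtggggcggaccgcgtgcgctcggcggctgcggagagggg
The RBL1 window held E2F matches that begin 26 and 16 bases before the start, and the first MDM2 window held 1 that begins 232 bases before it. Of 35116 windows of this length over all genes, 2.79% held an E2F match. The second MDM2 window held a p53 match that begins 94 bases before the start, and 0.561% of all windows held one. A window of PPP2R1A, not shown, also held a p53 match, 194 bases before its start. The windows of CDKN1A, MDM4 and RBL2, not shown, held no match to either motif. The windows of CDKN2A shown, with starts 20467 bases apart, held no match to either motif. A match is a run of letters and was not tested as a binding site.

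**Figure D1:**
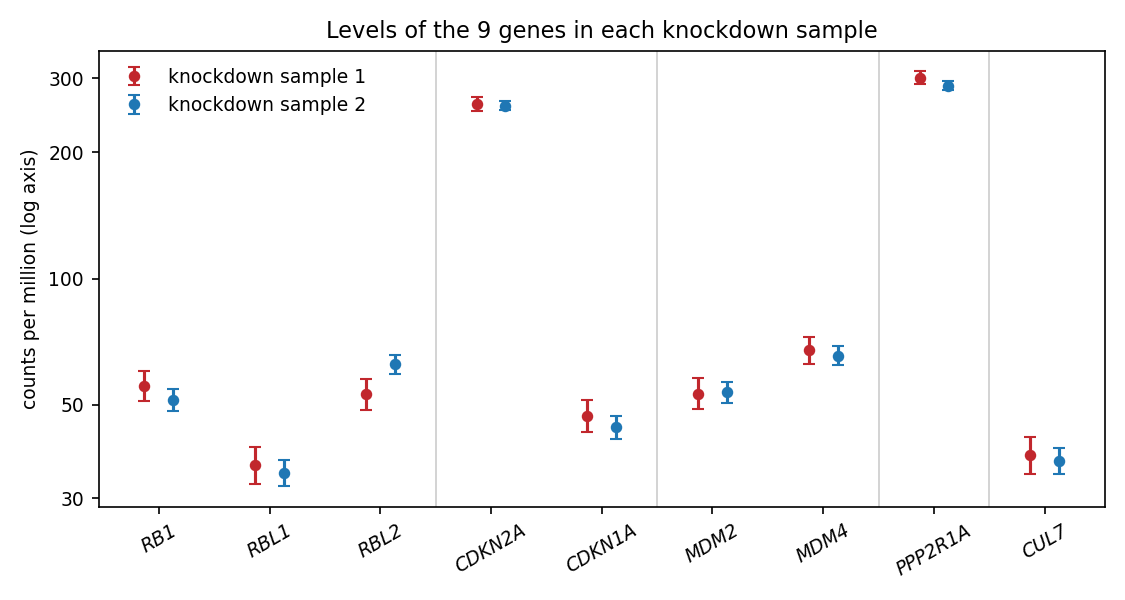
CPM (log axis) of the 9 genes in FKBP5 knockdown samples 1 and 2, with 95% exact Poisson intervals as bars and grey lines between roles. PPP2R1A (301 and 288 CPM) and CDKN2A (260 and 258 CPM) stand above the other 7 genes, and RBL2 had 53.1 and 62.5 CPM.

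Transcripts of all 3 pocket protein genes were measured in both samples, at 34.5 to 62.5 CPM. RB1, the retinoblastoma protein that restrains activating E2F factors, had 575 counts (55.4 CPM) in sample 1 and 1124 counts (51.4 CPM) in sample 2. RBL1, which encodes p107, had 373 counts (35.9 CPM) and 754 counts (34.5 CPM). RBL2, which encodes p130 and serves with p107 in the DREAM repressor complex, had 551 counts (53.1 CPM) and 1366 counts (62.5 CPM). The intervals of both samples overlapped for RB1 and RBL1, whereas those of RBL2 did not, with sample 1 lower. Per kilobase of exon, which allows levels of genes to be compared, RB1 had 8.28 ± 0.437 CPM, RBL2 7.90 ± 0.908 CPM and RBL1 5.92 ± 0.172 CPM (SD, n = 2). RBL1 was thus at 0.715 ± 0.0170 times the RB1 level and RBL2 at 0.958 ± 0.160 times. The order of RB1 and RBL2 was reversed between the samples, at 0.845 in sample 1 and 1.07 in sample 2. RB1 made up 37.5% ± 2.49 of the summed pocket protein level per kilobase, RBL2 35.7% ± 3.63 and RBL1 26.8% ± 1.14. These shares rest on the union of exons as length, and their SD does not cover the choice of length. RBL2 lay above RB1 with the longest transcript (11.8 against 11.1 CPM per kilobase) and with the median protein-coding transcript (28.5 against 20.3). RBL1 was the lowest of the 3 with each length.

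RB1 (ENSG00000139687) lies on the plus strand of chromosome 13 (48303726 to 48599436), in coordinates of GRCh38 and GENCODE 29, which are used for all genes. Its exons overlap those of no other gene. RBL1 (ENSG00000080839) lies on the minus strand of chromosome 20 (36996349 to 37095995), and RBL2 (ENSG00000103479) on the plus strand of chromosome 16 (53433977 to 53491649). Of the exonic bases of RBL2, 18.2% lie opposite exons of other genes, AKTIP among them, the largest such share of the 9 genes.

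Factors that act with the pocket proteins had a higher median level per length than all genes tested. Of 17 E2F and DP factors, MuvB core subunits, B-MYB and FOXM1, 16 reached 1 CPM, with a median of 11.8 CPM per kilobase against 4.746 over all genes tested. MYBL2, which encodes B-MYB, led with 164 ± 4.16 CPM per kilobase, followed by the E2F partner TFDP1 with 70.4 ± 1.35 and E2F1 with 48.1 ± 2.30. LIN37, a MuvB subunit, had 10 and 20 counts, and 26.7% of its exonic bases are shared with another gene on its strand, which makes its count uncertain. By the test between libraries 1 of the 16 was lower in sample 1 and 0 higher, against 4.41% and 4.56% of all genes tested. It was the repressor gene E2F7, with 46.6 CPM in sample 1 against 56.3 in sample 2 (adjusted p = 0.00790, exact binomial test), named after its value was seen. The 9 kinase and cyclin genes whose products phosphorylate pocket proteins all reached 1 CPM, with a median of 10.9 CPM per kilobase, and 0 of 9 passed that test. They were led by CDK4, with 35.1 ± 1.76 CPM per kilobase, CCND1 with 33.2 ± 0.199 and CCNA2 with 30.8 ± 0.465, while the cyclin E gene CCNE2 had 1.47 ± 0.00645.

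Genes that pocket proteins repress together with E2F had the highest median level of the pathway lists described. All 26 reached 1 CPM, at a median of 31.7 CPM per kilobase. The replication clamp gene PCNA had 187 ± 7.87 CPM per kilobase, and the helicase genes MCM7 and MCM3 had 100.4 ± 2.77 and 73.9 ± 3.49. By the test between libraries 6 of the 26 were higher in sample 1 and 0 lower, against 4.56% and 4.41% of all genes tested. The list had a median of 131 CPM, against 23.5 CPM over all genes tested, and levels differ in how many genes pass. Of genes with a mean of 35.2 to 294 CPM, the range of the host factors described here, 14.5% passed in either direction. The list itself ran from 13.5 to 458 CPM, so that share is not matched to its levels. The share of genes higher in sample 1 was not taken for that range. The median log2 ratio of the list was 0.07, against -0.01 over all genes tested. By edgeR's exact test, which allows for the spread between the libraries, 0 of the 26 passed, against 0.0837% of all genes tested. That spread was estimated from the same 2 libraries that the test compares, so few genes of any kind can pass. Its outcome therefore does not decide whether the list differed. MCM3 was among the 6 higher genes, with 279 CPM in sample 1 against 261 in sample 2 (adjusted p = 0.0429, exact binomial test). The other 5, named after their values were seen, were TK1, UHRF1, PLK1, CCNB1 and CDC6. Of the 50-base stretches of UHRF1 78.9% are unique to it, which makes its count uncertain. CCNB1, the mitotic cyclin B1, had 106 CPM in sample 1 against 88.4 in sample 2 (adjusted p = 9.46e-05, exact binomial test).

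CDKN2A was the highest of the 9 genes per length and CDKN1A ranked 3. CDKN2A encodes both p16, which inhibits CDK4 and CDK6, and ARF, which inhibits MDM2, from separate starts. It had 2698 counts (260 CPM) in sample 1 and 5643 counts (258 CPM) in sample 2. CDKN1A, which encodes the inhibitor p21 and is a classic p53 target, had 489 counts (47.1 CPM) in sample 1 and 968 counts (44.3 CPM) in sample 2. For both genes the intervals of the samples overlapped. Per kilobase of exon CDKN2A had 59.9 ± 0.298 CPM and CDKN1A 15.0 ± 0.658 CPM (SD, n = 2). These levels lay above 96.3% and 79.2% of the 15436 genes tested that have a length in GENCODE 29. Counts of the gene do not separate p16 from ARF transcripts, whose share was not measured here.

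Among 8 genes for CDK inhibitors and the CDK phosphatase CDKN3, CDKN2A ranked 1 and CDKN1A 4 (1 and 5 with the longest transcript). CDKN2A exceeded the other 7 in both samples. The next was CDKN1B, which encodes p27, with 40.1 ± 1.12 CPM per kilobase, followed by CDKN2C with 20.6 ± 1.38. CDKN2B, the neighbour of CDKN2A that encodes p15, had 3.94 ± 0.333 CPM per kilobase. The median of the 6 other inhibitors was 10.5 CPM per kilobase. By the test between libraries 1 of them was lower in sample 1 and 0 were higher, against 4.41% and 4.56% of all genes tested. The lower one was CDKN1C, with 9.73 CPM in sample 1 against 13.5 in sample 2 (adjusted p = 0.0434, exact binomial test).

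CDKN2A (ENSG00000147889) lies on the minus strand of chromosome 9 (21967753 to 21995301), and 7.88% of its exonic bases lie opposite exons of CDKN2B-AS1. CDKN2B-AS1 was counted 26 times in sample 1, against 68 in sample 2 (adjusted p = 0.675, exact binomial test). CDKN1A (ENSG00000124762) lies on the plus strand of chromosome 6 (36676460 to 36687339), and 4.79% of its exonic bases lie opposite exons of a non-coding gene that had 0 counts in sample 1 and 1 in sample 2.

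MDM2 and MDM4, which bind p53 and keep its activity low, were both transcribed, MDM2 at the lower level per length. MDM2, the ubiquitin ligase of p53 and itself a p53 target, had 552 counts (53.2 CPM) in sample 1 and 1170 counts (53.5 CPM) in sample 2. MDM4, which lacks strong ligase activity of its own, had 701 counts (67.6 CPM) in sample 1 and 1430 counts (65.4 CPM) in sample 2. For both genes the intervals of the samples overlapped. Per kilobase of exon MDM4 had 6.04 ± 0.137 CPM and MDM2 4.02 ± 0.0178 CPM (SD, n = 2), a ratio of MDM2 over MDM4 of 0.665 ± 0.0180. This order holds for the union of exons and for the longest transcript. With the median protein-coding transcript as length, which is 798 bases for MDM2 among its 34 annotated transcripts, MDM2 had 66.9 CPM per kilobase and MDM4 7.19, so the order depends on the length chosen.

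MDM2 (ENSG00000135679) lies on the plus strand of chromosome 12 (68808176 to 68850686). Its annotated starts shown above are 845 bases apart, and the second holds the p53 match. Another gene on its strand, which had no count, shares 3.30% of its exonic bases, and 6.91% lie opposite exons of other genes. Of its 50-base stretches 94.7% are unique to MDM2, the lowest share of the 9 genes. MDM4 (ENSG00000198625) lies on the plus strand of chromosome 1 (204516379 to 204558120), where its exons overlap those of no other gene.

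Genes that p53 induces ranged widely in level per kilobase of exon, with CDKN1A in the upper part and MDM2 in the lower part of the list. Of 32 p53 targets other than CDKN1A and MDM2, 31 reached 1 CPM, at a median of 6.19 CPM per kilobase against 4.746 over all genes tested. The BH3-only gene PMAIP1 led with 46.7 ± 1.26 CPM per kilobase, then the apoptosis effector gene BAX with 44.3 ± 1.92 and the cyclin gene CCNG1 with 43.7 ± 2.36. Among 34 targets with both of them counted in, CDKN1A ranked 10 and MDM2 22 (10 and 23 with the longest transcript). With the median protein-coding transcript MDM2 had 66.9 CPM per kilobase, and its rank with that length was not taken. By the test between libraries 1 of the 31 was higher in sample 1 and 1 lower, against 4.56% and 4.41% of all genes tested. Named after their values were seen, these were the stress sensor gene SESN2, with 83.7 CPM in sample 1 against 73.9 in sample 2 (adjusted p = 0.0417), and the repair gene DDB2, with 20.05 CPM in sample 1 against 26.1 in sample 2 (adjusted p = 0.0165), both by the exact binomial test.

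Other regulators of p53 and MDM2 included the ribosomal proteins and nucleophosmin that bind MDM2. Of 21 such genes 20 reached 1 CPM, at a median of 11.2 CPM per kilobase. NPM1 had 285 ± 14.8 CPM per kilobase, RPL11 186 ± 1.002 and RPL5 172 ± 3.62. Copies elsewhere in the genome make NPM1 uncertain, since 81.1% of its 50-base stretches are unique. For RPL5 that share is 90.4%. Among 23 genes with MDM2 and MDM4 counted in, MDM4 ranked 16 and MDM2 19 (17 and 21 with the longest transcript). Ranks with the median protein-coding transcript were not taken. By edgeR's exact test, which few genes of any kind can pass here, 0 of the 20 passed, against 0.0837% of all genes tested. By the test between libraries 1 of the 20 was higher in sample 1 and 3 lower, against 4.56% and 4.41% of all genes tested. NPM1 was the higher one, with 1130 CPM in sample 1 against 1050 in sample 2 (adjusted p = 1.82e-08, exact binomial test). The 3 lower ones, named after their values were seen, were the ligase gene HUWE1 with 599 CPM in sample 1 against 654 in sample 2, PPP1R13L with 51.6 and 62.8 CPM, and the p53 relative TP73 with 29.1 and 35.4 CPM.

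PPP2R1A, the alpha scaffold subunit of PP2A, was the second highest of the 9 genes per length. It had 3119 counts (301 CPM) in sample 1 and 6300 counts (288 CPM) in sample 2. Per kilobase of exon it had 39.6 ± 1.17 CPM (SD, n = 2), above 93.5% of the genes tested. Its paralog PPP2R1B, the beta scaffold, had 29.3 CPM in sample 1 against 29.4 in sample 2. The alpha scaffold was thus at 9.07 ± 0.285 times the beta scaffold per kilobase, with 9.27 in sample 1 and 8.87 in sample 2. PPP2R1A (ENSG00000105568) lies on the plus strand of chromosome 19 (52190039 to 52229533), and all of its 50-base stretches are unique to it. A gene on the opposite strand overlaps 9.55% of its exonic bases and was counted 0 times in sample 1, against 1 in sample 2.

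Among 26 PP2A genes with PPP2R1A counted in, it ranked 3 per kilobase (4 with the longest transcript) and exceeded 23 of the other 25 in both samples. The genes above it were SET, a PP2A inhibitor, with 186 ± 11.4 CPM per kilobase, and the striatin gene STRN4 with 46.3 ± 1.42, and the inhibitor gene ANP32A followed with 35.6 ± 0.423. Of the 50-base stretches of SET 90.1% are unique to it. The catalytic subunit genes PPP2CA and PPP2CB, outside the rule for named genes, had 12.5 ± 1.38 and 11.1 ± 0.567 CPM per kilobase. Of the 25 other genes 24 reached 1 CPM, at a median of 10.4 CPM per kilobase, and PPP2R2B, a B subunit gene, had 1 and 3 counts. By the test between libraries 2 of the 24 were higher in sample 1 and 0 lower, against 4.56% and 4.41% of all genes tested. They were SET, with 846 CPM in sample 1 against 776 in sample 2 (adjusted p = 1.11e-08), and, named after its value was seen, PPP2CA, with 76.2 CPM in sample 1 against 65.2 in sample 2 (adjusted p = 0.00951), both by the exact binomial test.

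**Figure D2:**
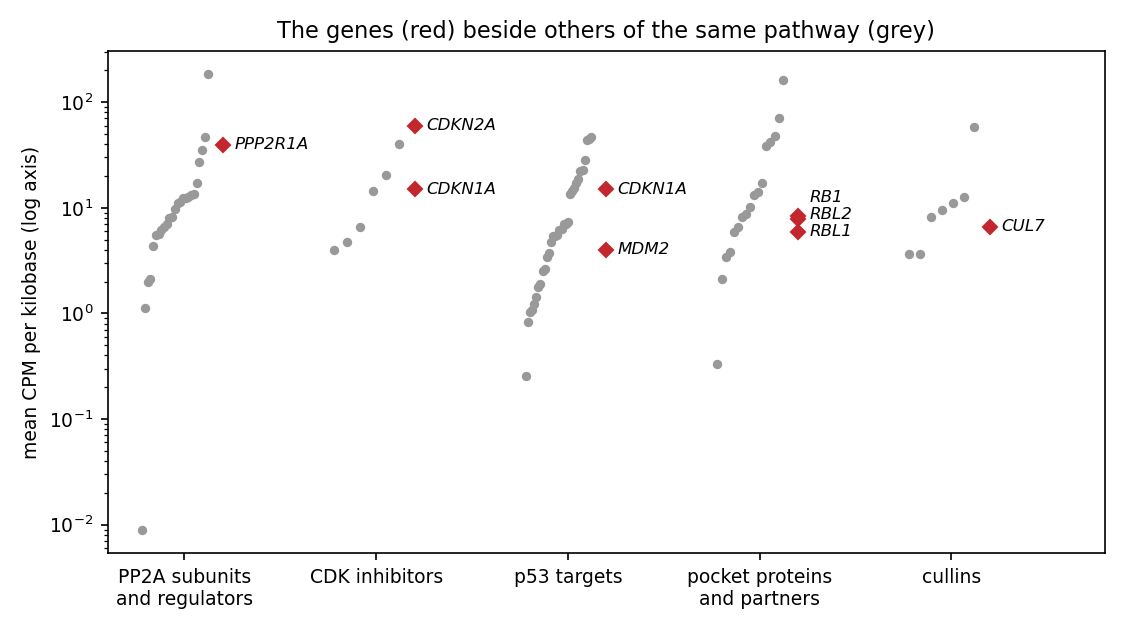
Mean CPM per kilobase of exon (log axis) of the genes described (red diamonds) beside other genes of the same pathway (grey points, in rising order within each list). CDKN2A at 59.9 lies above every other CDK inhibitor, PPP2R1A at 39.6 ranks 3 among PP2A genes, and CUL7 at 6.64 lies in the lower part of the cullins.

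CUL7, the scaffold of a ubiquitin ligase that also forms the 3M complex with OBSL1 and CCDC8, was among the lower of the 9 genes. It had 394 counts (38.0 CPM) in sample 1 and 803 counts (36.7 CPM) in sample 2, or 6.64 ± 0.155 CPM per kilobase of exon (SD, n = 2). CUL7 (ENSG00000044090) lies on the minus strand of chromosome 6 (43037617 to 43053945), and 5.85% of its exonic bases lie opposite exons of KLC4. KLC4 had 23.5 CPM in sample 1 against 25.9 in sample 2 (adjusted p = 0.519, exact binomial test). Among 8 cullin genes, CUL1 to CUL3, CUL4A, CUL4B, CUL5, CUL7 and CUL9, it ranked 6 per kilobase. CUL1 led with 58.5 ± 1.69 CPM per kilobase, and CUL5 and CUL9 lay below CUL7 with 3.66 ± 0.280 and 3.62 ± 0.789. Of the 6 cullins other than CUL7 and CUL9, at a median of 10.3 CPM per kilobase, 0 passed the test between libraries. Of all genes tested 8.97% passed it in either direction.

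The list around CUL7 held 7 other genes, those of its ligase and of the 3M complex together with its paralog CUL9. All 7 reached 1 CPM, at a median of 6.98 CPM per kilobase. By the test between libraries 1 was higher and 2 were lower in sample 1, where 8.97% of all genes tested passed in either direction, and whether these genes differed more than CUL7 was not tested. CCDC8 had 87.8 CPM in sample 1 against 65.8 in sample 2 (adjusted p = 3.05e-09, exact binomial test). CUL9, the paralog of CUL7 that also binds p53, had 37.5 CPM in sample 1 against 51.2 in sample 2 (adjusted p = 6.73e-06). OBSL1 had 329 CPM in sample 1 against 360 in sample 2 (adjusted p = 0.000304). With edgeR's exact test none of these 3 passed, at adjusted p of 0.308 for CCDC8, 0.353 for CUL9 and 1 for OBSL1. Few genes of any kind could pass edgeR's test (0.0837% of all genes tested did), since its dispersion came from the same libraries that it compares. The CUL7 level was 2.20 times that of CUL9 per kilobase in sample 1 and 1.56 times in sample 2, a mean of 1.88 ± 0.453. The remaining genes FBXW8, the F-box protein of the CUL7 ligase, SKP1, RBX1 and GLMN did not pass the test.

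**Figure D3:**
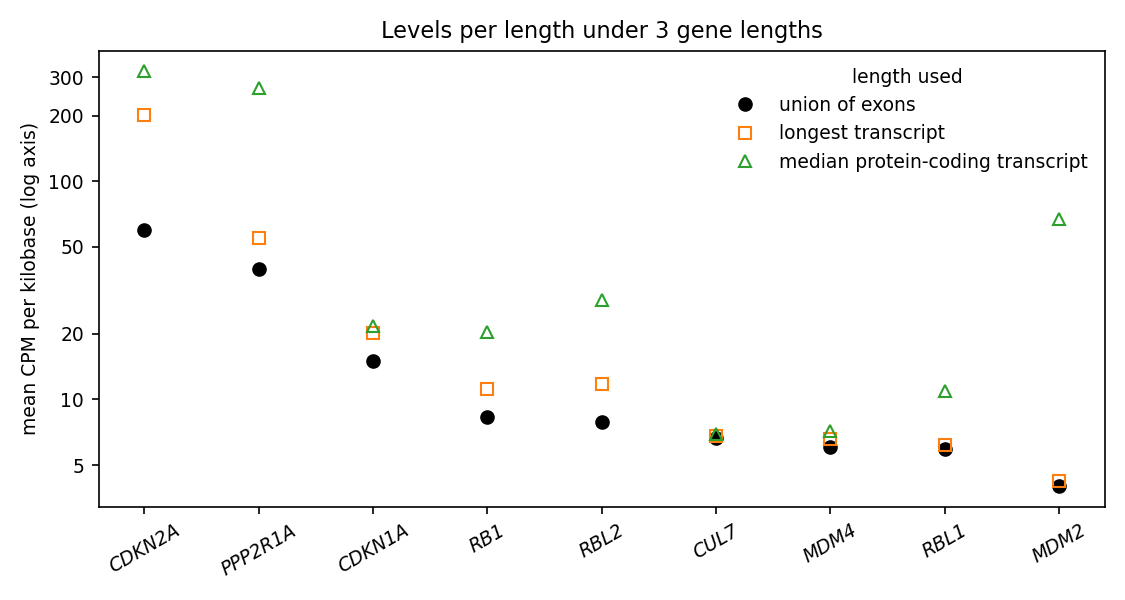
Mean CPM per kilobase (log axis) of the 9 genes with the union of exons, the longest transcript or the median protein-coding transcript as the gene's length, in order of the first. CDKN2A and PPP2R1A lead under all 3 lengths, and MDM2 is at 4.02 by the union of exons and at 66.9 by the median protein-coding transcript.

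The order of the 9 genes per kilobase of exon was CDKN2A, PPP2R1A, CDKN1A, RB1, RBL2, CUL7, MDM4, RBL1 and MDM2. Of the 8 neighbouring pairs in this order 6 were apart, in that their ranges over both samples did not overlap. RB1 and RBL2 overlapped, and so did MDM4 and RBL1, which differed by 1.02 times. The largest step was that between PPP2R1A and CDKN1A, of 2.64 times. Ranges over 2 samples are a weak measure of spread. With the longest transcript as length RB1 and RBL2 changed places, at 11.1 and 11.8 CPM per kilobase, and the other 7 genes kept their ranks. With the median protein-coding transcript only CDKN2A and PPP2R1A kept theirs.

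The samples were then compared with each other, as a measure of how closely the levels repeat. The exact binomial test passed 1 of the 9 genes at an adjusted p under 0.05, against 8.97% of all genes tested, and against 14.5% of the 5773 genes whose mean CPM lay in the range of the 9. The gene was RBL2, lower in sample 1, a direction in which 4.41% of all genes passed, and 0 of the 9 were higher, against 4.56%. Its CPM in sample 1 was 0.850 times that in sample 2 (95% exact interval 0.768 to 0.939), a log2 ratio of -0.23 (adjusted p = 0.0187, exact binomial test). AKTIP, on the opposite strand to RBL2 and named after its value was seen, was lower in sample 1 too, with 13.1 CPM in sample 1 against 17.4 in sample 2 (adjusted p = 0.0466, exact binomial test). Whether counting used the strand is not stated, so reads of both genes where they overlap may not have been told apart, and the part of this overlap in the RBL2 difference was not tested.

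**Figure D4:**
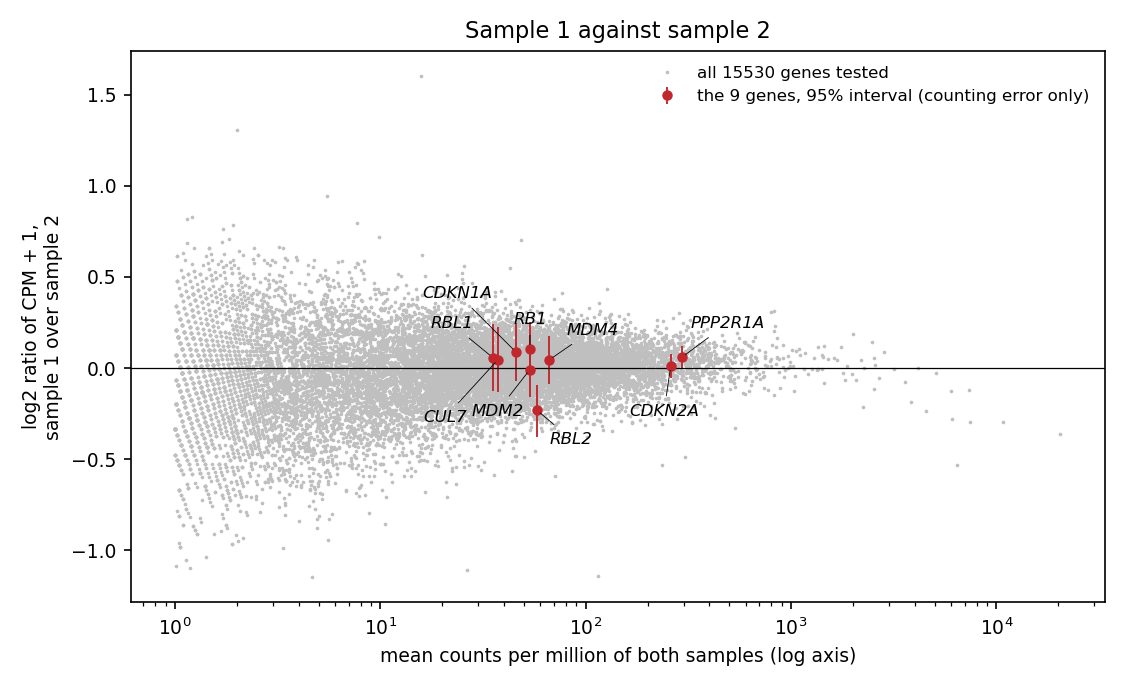
Log2 ratio of CPM + 1, sample 1 over sample 2, against mean CPM (log axis) for all 15530 genes tested (grey) and the 9 genes (red, with 95% exact intervals of the CPM ratio as bars). RBL2 at -0.23 is the 1 gene of the 9 whose interval does not reach 0.

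The other 8 genes did not pass, at adjusted p of 0.248 to 0.989 by the exact binomial test. Their log2 ratios of CPM + 1 ran from -0.01 for MDM2 to 0.11 for RB1. Of the 8, 7 were above 0, against 7289 of the 15530 genes tested. The sign for CDKN2A changed with median-of-ratios size factors, and that for MDM2 with column totals. The 95% exact intervals of their CPM ratios all held 1. The lowest bound was 0.896, for MDM2, and the highest was 1.19, for RB1. Each interval covers the counting error of its own gene, and that of CDKN2A was narrower, at 0.962 to 1.05. Over all genes tested the SD of the log2 ratio was 0.21 and the median -0.01, and 64.0% of genes had a ratio within the range of the 9. Whether the 8 genes share a shift was not tested. When the spread between the libraries was taken into account, with edgeR's exact test at a common dispersion estimated from both samples as replicates (a coefficient of variation of 5.60%), RBL2 did not pass (adjusted p = 0.932). In that test 0.0837% of all genes passed (13 of 15530) and 0 of the 9, and 0 of the 9 had an unadjusted p under 0.05. CCDC8, CUL9, CDKN1C, SET, NPM1 and every other listed gene named above as passing the binomial test did not pass it either (0 of the listed genes). The dispersion came from the same libraries that edgeR's test compares, so few genes of any kind can pass. Its outcomes do not decide whether a gene differed. With both samples in 1 group, no pattern across conditions could be used to name genes that resemble the 9.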

How the data were processed

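Libraries of total RNA from HEK293T cells were directional and made with a modified NEBNext Ultra II protocol, per the labels' protocols. Counts as deposited are raw whole numbers for each Ensembl gene. Per the submitters' processing notes, STAR 2.7.7a and edgeR were used with GRCh38. Which program, strand setting and annotation gave the counts is not stated in the labels or headers. The authors' CPM are these counts times 1 constant per library. Of the values 100% gave whole reads within a relative tolerance of 1e-06, equal to the counts. The test on those reads, added after seeing the data, passed 1393 genes, which that equality fixed in advance. The library size behind the CPM exceeded the sum of counts by 3.78% (sample 1) and 2.68% (sample 2). Count columns were assigned by the names that head each sample's own CPM file.

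Lengths, coordinates and overlaps came from GENCODE 29 (GRCh38), which held 96.4% of the IDs, and symbols matched 99.5%. Levels per kilobase divide CPM by the union of exons. Means and SD are over 2 samples. Log2 ratios use CPM + 1. The exact binomial test, with a minimum mean of 1 CPM and a threshold of 0.05, was tested on simulated data. It takes the place of a quasi-likelihood test, which has no residual degrees of freedom here. The libraries differed by more than sampling noise (chi-square per degree of freedom 4.68). The alternative tests used edgeR 4.0.16 in R 4.3.3, and other steps Python 3.11.15 with pandas 2.3.3, numpy 2.4.6 and scipy 1.17.1.

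The members, the 15 gene lists and the tests were chosen with earlier results of these data known. Named genes are the members, the 3 genes of each list with the highest CPM per kilobase, those that pass with at least 1.5-fold, and any gene of lists under 10 genes; others are said to be named after their values were seen or outside the rule. Some marker genes that the rule allows are not reported here.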

Additional observations from a re-analysis of the deposited data

How the results depend on the processing

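Direction and side of the threshold were the same for 6 of the 9 genes in every test setting tried: other scalings, a minimum mean of 5 CPM or none, pseudocounts of 0.1 and 5, edgeR's exact test and, chosen after seeing the data, reads recovered from the CPM. The pseudocounts do not enter the p-values and cannot change a sign, and the recovered reads equal the counts, so these settings could not differ. A minimum mean or edgeR's test could change the side of the threshold but not the direction. The log2 ratio of MDM2 was 0.0063 with column totals and that of CDKN2A was -0.0056 with median-of-ratios size factors (the causes were not tested), and RBL2 did not pass edgeR's exact test. That test passed 0 of the 9 genes and 13 of all genes, against 1 and 1393 with counting error only, since it adds the spread between the libraries (881 genes had an unadjusted p under 0.05). That spread was estimated from the same libraries that the test compares, so few genes could pass. Of the 1393, 708 were higher and 685 lower in sample 1, and with median-of-ratios size factors 551 and 857. TMM library sizes gave the same 708 and 685 and raised the level of each of the 9 genes by 3.23%. They are thus in proportion to the deposited library sizes and are no separate check. The median level of the 9 genes, 53.4 CPM, became 55.2 CPM with column totals and 55.1 CPM with TMM library sizes, which raised each level by 3.18 to 3.25%. It was 53.5 CPM without sample 1 and 53.2 CPM without sample 2, and RBL2 stood above RB1 per kilobase without sample 1. With the median protein-coding transcript as length 2 of the 9 genes kept their rank. With the longest transcript RBL1 over RB1 was 0.556, MDM2 over MDM4 0.640, PPP2R1A over PPP2R1B 10.4 and CUL7 over CUL9 1.28. No paired analysis was possible because both samples belong to 1 group. Differences within the counting intervals were not detectable at this depth.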

Other observations

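Host proteins other than the 9 that large T is known to bind were also transcribed. All 15 listed genes reached 1 CPM, at a median of 12.4 CPM per kilobase. By the exact binomial test between libraries 2 were higher in sample 1 and 0 lower, against 4.56% and 4.41% of all genes tested. HSPA8, the chaperone that the J domain of large T recruits, had 910 CPM in sample 1 against 732 in sample 2, or 169 ± 26.02 CPM per kilobase (SD, n = 2; adjusted p = 4.93e-59 by that exact test, and 0.569 with edgeR's exact test at the common dispersion). Of the 50-base stretches of HSPA8 91.8% are unique to it. RPA1, the single-strand DNA binding subunit used in SV40 replication, had 71.4 ± 1.48 CPM per kilobase. TOP1, the topoisomerase gene, had 199 CPM in sample 1 against 184 in sample 2 (adjusted p = 0.0401, exact binomial test). FAM111A, a host range restriction factor of SV40 named after its value was seen, was the lowest, with 14 counts in sample 1 and 23 in sample 2.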
